A study of Mus musculus with 11 samples.

Results

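The 7 genes described here encode the enzymes that break down stored triglyceride in adipocytes and proteins that control them. They were chosen by name (Pnpla2, Abhd5, G0s2, Lipe, Mgll, Pde3b and Pnpla3) and all 7 were found among the 29955 gene symbols of the RNA-seq data, each represented by 1 transcript. The 11 samples of the series are RNA of im-scWAT cells, a mouse preadipocyte line that was made from inguinal subcutaneous white fat by immortalization with SV40 large T antigen. The untransduced cells gave 6 samples. A pair was taken at day 0, before induction, and 1 sample each at days 4 and 8 of differentiation with 0.5 μM rosiglitazone (ROS, a PPARγ ligand) or without it. The induction medium held indomethacin, dexamethasone, insulin, T3 and IBMX, an inhibitor of phosphodiesterases, and ROS for the samples with ROS. According to the methods of the study, this medium was used only at the start. Before day 4 it was replaced by medium with insulin and T3, and ROS where given, without the other additions. The other 5 samples were differentiated to day 8 with ROS after retroviral transduction of a hairpin against mouse Jmjd1a (sh-mJmjd1a, driven by the U6 promoter) and a human JMJD1A cDNA (driven by the viral LTR), so the WT samples carry both as well. The cDNA was WT in a pair of samples (WT A and WT B) and S265A, S265D or S265D-H1120Y in 1 sample each. JMJD1A is a histone H3K9 demethylase. S265A removes the serine that protein kinase A phosphorylates, S265D mimics its phosphorylation, and H1120Y removes the catalytic activity. According to the labels ROS was withdrawn for the last day before day 8, whereas the methods of the study keep it in the medium of these cells.

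Triglyceride is hydrolysed in steps. Adipose triglyceride lipase (ATGL, encoded by Pnpla2) removes the first fatty acid, hormone-sensitive lipase (Lipe) acts mainly on the resulting diacylglycerol, and monoacylglycerol lipase (Mgll) releases the last fatty acid and glycerol. ATGL is switched on by its coactivator CGI-58 (Abhd5), which perilipin 1 holds at the lipid droplet in the basal state, and is switched off by the inhibitor G0S2. Catecholamines start lipolysis through β-adrenergic receptors, cyclic AMP and protein kinase A, and insulin restrains it largely through the phosphodiesterase PDE3B, which degrades cyclic AMP. Adiponutrin (Pnpla3) is a relative of ATGL that sits on lipid droplets and is known as a gene switched on by feeding and insulin.

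The levels given are FPKM, which the authors calculated per kilobase of exon from mapped bases. On the mm9 genome used by the authors, each gene is protein coding, and the transcript used spans chr7:148641087-148646642 (plus strand) for Pnpla2, chr9:122260734-122290641 (plus) for Abhd5, chr1:195098354-195099382 (minus) for G0s2, chr7:26164546-26181006 (minus) for Lipe, chr6:88674698-88778354 (plus) for Mgll, chr7:121558768-121681451 (plus) for Pde3b and chr15:83998246-84019951 (plus) for Pnpla3. The values cover exons of these transcripts, introns excluded. Pnpla2, Abhd5, Lipe and Mgll have 4 transcripts each in the files, and reads in shared exons count for every one of them. The other Pnpla2 transcripts lay between 0.944 and 1.05 times the one used in the 11 samples. A short Abhd5 transcript of 583 bases lay between 0.167 and 0.241 times the one used, and a short Mgll transcript of 1204 bases between 0.140 and 0.356 times.

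The promoters of 6 of the 7 genes were read from RefSeq (GRCm38.p6, a different build from that of the expression values), and Pde3b had no entry. Sequences of the ATGL gene, its coactivator, its inhibitor and Pnpla3 are shown because these genes changed together with differentiation while Pnpla3 stood apart from the other 3 with ROS. Each run holds the 250 bases before the transcription start, written 5′ to 3′ on the strand of the gene. Capitals mark matches on either strand to any of 5 short motifs. GGGCGG is the GC box of housekeeping and other promoters. AGGTCA is the core element that nuclear receptors bind. CACGTG is an E-box, a target of basic helix-loop-helix factors such as SREBP1 and USF. The CCAAT box and the TATA box (letters TATAAA) are general promoter elements. Overlapping matches run together.
Pnpla2, chr7:141454938-141455187, plus strand: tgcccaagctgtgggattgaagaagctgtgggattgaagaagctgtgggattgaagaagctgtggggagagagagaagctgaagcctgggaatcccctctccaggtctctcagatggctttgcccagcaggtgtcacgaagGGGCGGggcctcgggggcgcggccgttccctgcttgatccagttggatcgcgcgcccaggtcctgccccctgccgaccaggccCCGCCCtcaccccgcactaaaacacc
Abhd5, chr9:122351366-122351615, plus strand: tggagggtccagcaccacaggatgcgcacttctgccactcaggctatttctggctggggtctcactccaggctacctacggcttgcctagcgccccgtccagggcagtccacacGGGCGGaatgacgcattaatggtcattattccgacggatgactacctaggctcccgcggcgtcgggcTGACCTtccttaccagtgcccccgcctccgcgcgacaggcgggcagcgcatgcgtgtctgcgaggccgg
G0s2, chr1:193273189-193273438, minus strand: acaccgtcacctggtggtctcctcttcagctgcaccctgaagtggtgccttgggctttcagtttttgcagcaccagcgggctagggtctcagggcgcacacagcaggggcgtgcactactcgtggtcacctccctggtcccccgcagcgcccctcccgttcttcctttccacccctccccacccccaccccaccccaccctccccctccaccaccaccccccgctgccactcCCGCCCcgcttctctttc
Pnpla3, chr15:84167566-84167815, plus strand: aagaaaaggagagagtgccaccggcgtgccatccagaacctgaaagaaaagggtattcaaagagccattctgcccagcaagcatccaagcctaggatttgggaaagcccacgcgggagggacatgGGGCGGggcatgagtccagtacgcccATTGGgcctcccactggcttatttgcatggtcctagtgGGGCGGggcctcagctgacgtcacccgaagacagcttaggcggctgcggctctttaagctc
GC boxes were the most frequent match. They were found in 6 of the 8 promoters of the 6 genes (2 promoters each for Lipe and Mgll) and in 32.7% of all 32851 promoters of this length. The GC content of the 4 promoters shown was 63.2% for Pnpla2, 64.8% for Abhd5, 67.2% for G0s2 and 58.4% for Pnpla3, with a median of 52.4% over all promoters. The nuclear receptor element was found in the Abhd5 promoter alone, on the opposite strand from 69 to 64 bases before the start, and in 14.0% of all promoters. This element repeated with 1 base between the copies (DR1, AGGTCANAGGTCA), which PPARγ binds as a heterodimer with RXR, was in none of the 8 windows and in 0.0335% of all promoters. An E-box was found once each for Lipe and Mgll (6.02% of all promoters), a CCAAT box for Pnpla3 alone (33.8%), and a TATA box in none (12.4%). These matches describe the letters of the windows and are not binding sites.

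The total of mapped bases ranged from 3.10 to 5.29 Gb per sample (median 4.64 Gb). Of 8 adipocyte markers, 7 were well expressed in every differentiated sample, and the summed FPKM of the list was 268 and 269 at day 0 and between 11080 and 34764 after differentiation, most of it from Fabp4. Leptin mRNA (Lep) stayed between 0 and 0.252 FPKM in all 11 samples. The summed FPKM of 6 preadipocyte markers was 554 and 622 at day 0 and between 139 and 571 after differentiation, most of it from Ly6a. The macrophage markers Emr1 and Ptprc and all 4 markers of skeletal myoblasts were at 0 in all 11 samples. Of the other macrophage and endothelial markers, Cd68 and Pecam1 had their highest values in S265D-H1120Y (21.7 and 3.47 FPKM). Csf1r, Cdh5, Kdr and Tek were at most 0.567 FPKM in all 11 samples. The mRNA of the targeted gene, mouse Kdm3a (Jmjd1a), had 20.4 FPKM in WT A, 17.9 in WT B, 13.0 in S265A, 23.0 in S265D and 28.5 in S265D-H1120Y, against 21.1 in the untransduced sample of day 8 with ROS. It was lower than there in 3 of the 5 transduced samples and higher in the other 2. Whether reads of the human cDNA enter these values was not tested.

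All 7 lipolysis genes rose with differentiation. The first comparison asked how their mRNA differs between preadipocytes and differentiated cells. It set the 4 untransduced samples of days 4 and 8 against the pair of day 0 in limma. These 4 samples differ in day and ROS but were taken as 1 group, so such differences are part of the standard errors and p-values. The increase was steepest for G0s2, from almost nothing to one of the most abundant mRNAs of the cell, and smallest for Abhd5, which preadipocytes already expressed. The 7 adjusted p-values lay between 1.24e-06 and 1.93e-04, whereas 22.1% of the 15667 genes tested were called higher and 20.7% lower. The median log2 difference was 6.78 for the 7 genes and -0.02 for all genes tested. The log2 differences of the 7 genes stood above those of 97.71% to 99.95% of all genes tested. In bulk RNA, more adipocytes in the dish and more mRNA per adipocyte cannot be told apart, and the 7 adipocyte markers tested all rose in the same samples, with a median log2 difference of 10.24. Of the 6 preadipocyte markers 4 fell and 1 (Pdgfra) rose.

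**Figure D1:**
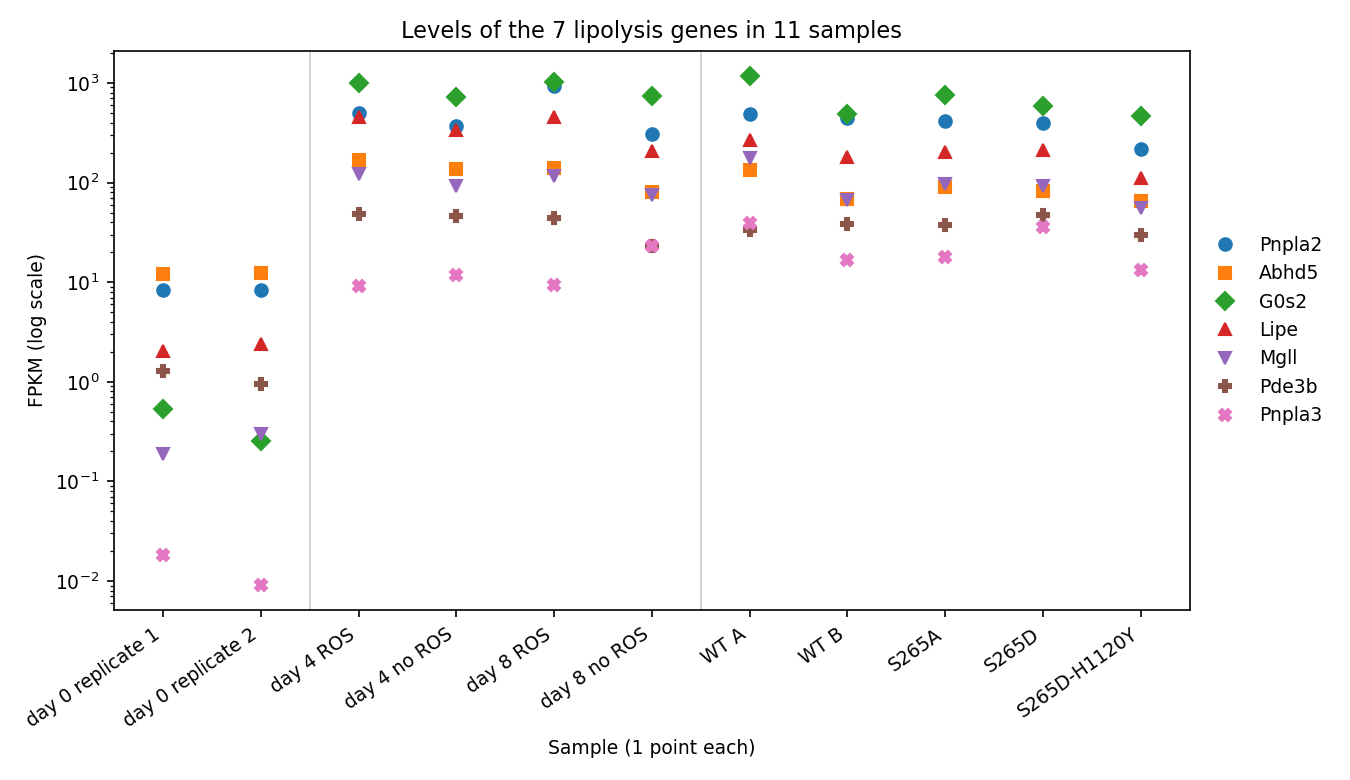
FPKM of the 7 lipolysis genes (log scale) in each of the 11 samples, with 1 point per gene and sample and vertical lines between day 0, the other untransduced samples and the transduced samples. Each of the 7 genes lies higher in all 9 differentiated samples than in either day 0 sample. The share of all genes that do so was not counted. G0s2 goes from 0.531 and 0.253 at day 0 to at least 461.

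Pnpla2, the first lipase of the pathway, had 8.44 and 8.41 FPKM at day 0. It reached 494 at day 4 with ROS, 369 at day 4 without ROS, 924 at day 8 with ROS and 306 at day 8 without ROS. The log2 difference was 5.81 ± 0.40 (SE, adjusted p = 9.19e-05 in limma), with every differentiated sample far above the day 0 pair. Abhd5, which encodes its coactivator, had 12.1 and 12.3 FPKM at day 0. In the order day 4 with ROS, day 4 without, day 8 with and day 8 without, it had 167, 137, 139.9 and 80.4 FPKM. The increase of 3.36 ± 0.27 on the log2 scale (adjusted p = 1.93e-04 in limma) was the smallest of the 7 genes. G0s2, the inhibitor, had 0.531 and 0.253 FPKM at day 0. In the same order of differentiated samples it had 989.9, 717, 1018 and 738 FPKM. Its log2 difference of 10.82 ± 0.26 (adjusted p = 1.24e-06 in limma) placed it eighth from the top of all genes tested, and its level in the 9 differentiated samples ranked between 36 and 149 of 29955 symbols.

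Lipe, the gene of hormone-sensitive lipase, had 2.02 and 2.42 FPKM at day 0 and 451, 334, 450.4 and 209 FPKM in the 4 differentiated samples, in the same order. Mgll had 0.189 and 0.300 FPKM at day 0 and then 122, 92.7, 115 and 75.1 FPKM. The differences of these downstream lipases were 7.22 ± 0.31 and 8.19 ± 0.24 on the log2 scale, larger in value than that of Pnpla2, although the difference between the increases was not tested. Pde3b had 1.28 and 0.958 FPKM at day 0 and 48.3, 45.9, 44.0 and 22.9 FPKM after differentiation, a log2 difference of 5.00 ± 0.32. Pnpla3 was nearly undetected at day 0, with 0.0183 and 0.00917 FPKM from 396 and 198 mapped bases, and had 9.21, 11.8, 9.36 and 23.1 FPKM afterwards. Its log2 difference of 6.78 ± 0.39 is understated because the 0.1 added to each FPKM is larger than its day 0 level. The adjusted p in limma was at most 6.79e-05 for each of these 4 genes. The groups did not overlap for any of the 7 genes, but the share of all genes without overlap was not counted.

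The balance between the lipase and its regulators, read as ratios of FPKM within a sample, differed between preadipocytes and differentiated cells. G0s2 had 0.0629 and 0.0301 times the FPKM of Pnpla2 at day 0 and 1.10 to 2.42 times in the 9 differentiated samples. Abhd5 moved the other way, from 1.43 and 1.47 times Pnpla2 at day 0 to between 0.151 and 0.370 times. The inhibitor message was thus above the lipase message in every differentiated sample, and the activator message was below it. The lowest value of both ratios among the untransduced differentiated samples was at day 8 with ROS (1.10 and 0.151), where Pnpla2 was highest. These are ratios of mRNA levels per length, and no protein was measured.

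**Figure D2:**
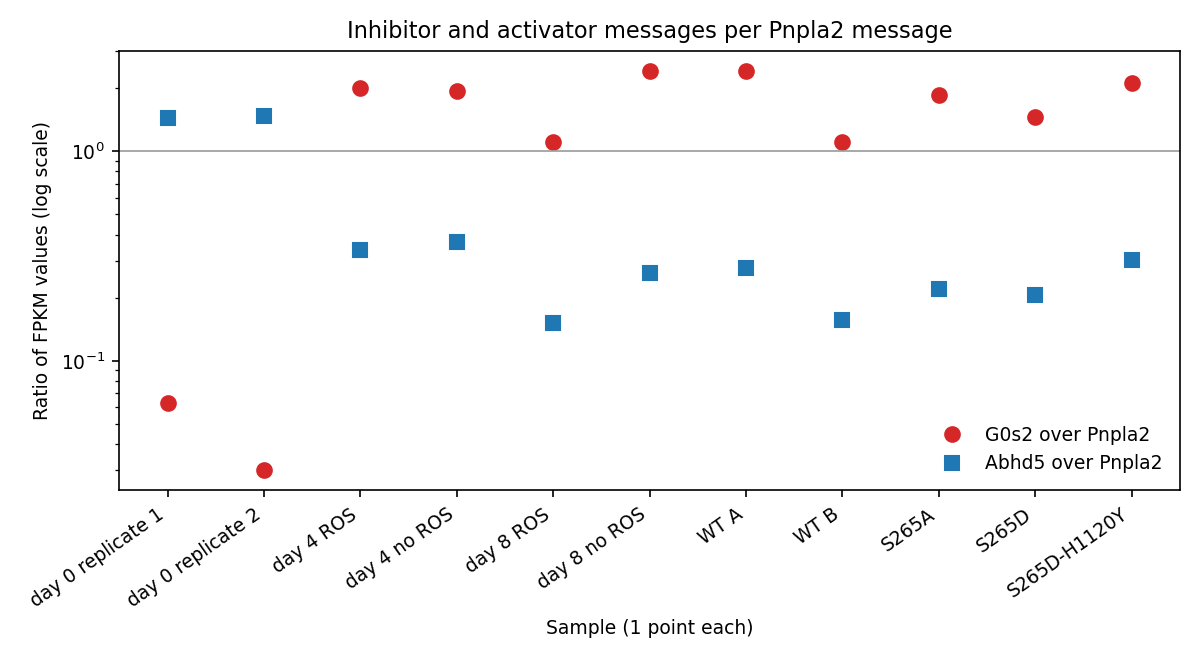
Ratio of the FPKM of G0s2 (circles) and Abhd5 (squares) to that of Pnpla2 in each of the 11 samples, on a log scale with a line at 1. Both day 0 samples have Abhd5 above the line and G0s2 far below it, and all 9 differentiated samples have the reverse order.

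Among the 9 differentiated samples, G0s2 was the most abundant of the 7 mRNAs in each sample and Pnpla2 came next. Their ranges were 461 to 1169 FPKM (median 738) and 217 to 924 FPKM (median 414). Lipe followed with 110.4 to 451 FPKM (median 210.4) and lay below Pnpla2 in each sample, at 0.409 to 0.913 times its FPKM. Abhd5 (66.0 to 167 FPKM) and Mgll (55.6 to 175 FPKM) covered nearly the same range and their order changed between samples. Pde3b (22.9 to 48.3 FPKM) and Pnpla3 (9.21 to 39.6 FPKM) were the least abundant, and their ranges overlapped too. The largest value was 4.30 times the smallest for Pnpla3, 4.25 for Pnpla2, 4.09 for Lipe, 3.15 for Mgll, 2.54 for G0s2, 2.53 for Abhd5 and 2.10 for Pde3b.

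Of the wider lipolysis pathway, 40 of 41 listed genes were found, and Hilpda was not among the symbols. Of the 37 that passed the minimum of 0.1 FPKM in 2 samples, 28 were called higher after differentiation, 0 lower, and the median log2 difference was 2.14. Of all genes tested, 22.1% were called higher and 20.7% lower, with a median of -0.02. The same shares stand beside the counts for each group of the list below. The list was written with earlier results of these data known. The lipid droplet proteins that regulate the lipases gave 6 of 8 higher. Plin1, the perilipin that holds CGI-58 away from ATGL, had 0.0574 and 0.0229 FPKM at day 0 and 144 to 231 FPKM in the 4 differentiated samples (log2 difference 10.39 ± 0.23). Cidec, which enlarges lipid droplets, had a log2 difference of 11.89 ± 0.57. Plin5, a perilipin of oxidative tissues, and Plin2, which coats droplets in many cell types, rose by 4.82 ± 1.00 and 1.62 ± 0.46. Cidea had 0.118 and 0.110 FPKM at day 4 but 40.8 and 1.34 at day 8, and did not pass the test (3.45 ± 2.00, adjusted p = 0.199 in limma).

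Receptors that start or restrain lipolysis gave 6 of 7 tested higher. Adrb3, the β3-adrenergic receptor of adipocytes, was at 0 in both day 0 samples and between 2.78 and 4.25 FPKM in the 4 differentiated samples (log2 difference 5.15 ± 0.28). Adrb1 was at most 0.0469 FPKM in the 6 untransduced samples and was not tested. Among the receptors that lower cyclic AMP, 4 of the 5 listed rose. The adenosine A1 receptor Adora1 changed by 6.94 ± 0.68, the lactate receptor Gpr81 (Hcar1) by 3.97 ± 0.33, the niacin receptor Niacr1 (Hcar2) by 4.19 ± 0.89 and the prostaglandin receptor Ptger3 by 1.70 ± 0.52 on the log2 scale. The α2A-adrenergic receptor Adra2a was at most 0.132 FPKM in the 6 untransduced samples and was not tested.

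In cyclic AMP and insulin signalling, 5 of 8 tested genes rose. Abhd15, which encodes a partner of PDE3B, changed by 5.92 ± 0.22, from 0.608 and 0.631 FPKM at day 0 to between 33.2 and 55.8. Prkar2b, a regulatory subunit of protein kinase A, changed by 2.58 ± 0.42, and the catalytic subunit Prkaca by 0.47 ± 0.13. The insulin receptor Insr (2.14 ± 0.33) and Akt2 (1.59 ± 0.26), the kinase downstream of it, rose as well. Of the other cyclic AMP phosphodiesterases, Pde4b and Pde4d did not pass the test, with log2 differences of 0.55 ± 0.33 and -0.38 ± 0.31, and Pde3a was at most 0.160 FPKM in the 6 untransduced samples.

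Of the other hydrolases, 7 of 10 rose. Lipoprotein lipase (Lpl), which takes fatty acids from circulating lipoproteins, changed by 5.88 ± 0.23, and the carboxylesterase Ces1d by 7.12 ± 0.54. The lysosomal lipase Lipa (0.22 ± 0.26), Pnpla6 (-0.19 ± 0.16) and Pnpla7 (0.69 ± 0.28) did not pass. All 4 genes that handle the products rose, namely the fatty acid carrier Fabp4, the glycerol channel Aqp7, the acyl-CoA synthetase Acsl1 and glycerol kinase Gyk, with log2 differences of 6.30, 6.08, 5.70 and 1.76.

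**Figure D3:**
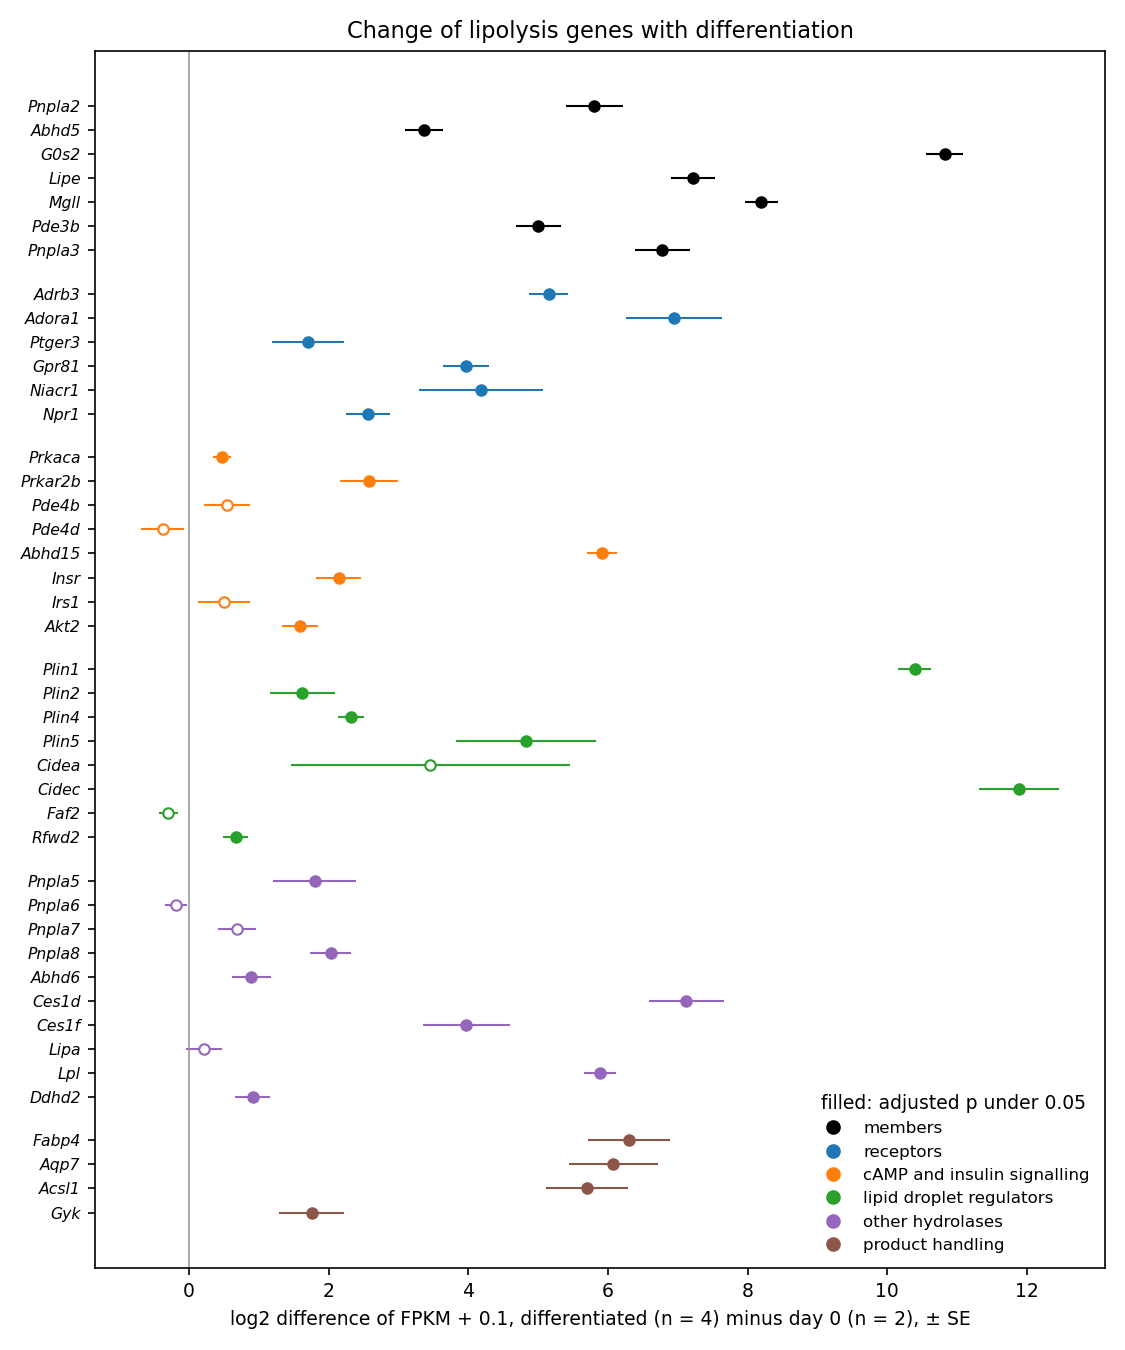
Log2 difference of FPKM + 0.1 between the 4 differentiated and the 2 day 0 untransduced samples for the 7 lipolysis genes (black) and all but 1 of the 37 tested genes of the wider pathway, with bars of 1 standard error from limma. Filled points passed an adjusted p of 0.05, which all 7 lipolysis genes and 28 of the 37 did.

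The second comparison asked whether ROS, which turns these white preadipocytes toward beige adipocytes, altered the same genes. At day 4 the 7 genes differed little. The FPKM with ROS was 1.34 times that without for Pnpla2, 1.22 for Abhd5, 1.38 for G0s2, 1.35 for Lipe, 1.31 for Mgll and 1.05 for Pde3b, and 0.784 for Pnpla3. So 6 of 7 genes were higher with ROS, as were 39.7% of all genes tested, and none was past 2-fold, where 0.996% of genes were at least 2-fold higher and 1.74% at least 2-fold lower.

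At day 8 the ratios were wider. Pnpla2 had 924 FPKM with ROS and 306 without, a ratio of 3.02, and Lipe 450.4 and 209, a ratio of 2.15. Pde3b had 44.0 and 22.9 FPKM (1.91), Abhd5 139.9 and 80.4 (1.74), Mgll 115 and 75.1 (1.54) and G0s2 1018 and 738 (1.38). Pnpla3 alone was lower with ROS, at 9.36 against 23.1 FPKM, a ratio of 0.408. The count of 6 of 7 genes higher stands beside 31.4% of all genes tested, the 2 genes past 2-fold upward beside 2.69%, and the 1 gene past 2-fold downward beside 10.7%.

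Each of these conditions had 1 sample, so in limma the spread came from the day 0 pair alone, with 1 residual degree of freedom. No gene passed at either day among 15667 tested, although 1523 genes at day 4 and 4983 at day 8 had an unadjusted p under 0.05. Standard errors of the log2 ratio at day 8 were 0.55 for G0s2 and 0.32 for Mgll, against 0.07 for Pnpla2 and Abhd5. They rest on the day 0 pair, where G0s2 had 0.531 and 0.253 FPKM and Mgll 0.189 and 0.300. They do not measure the spread of these genes at day 8, so the 7 genes cannot be ranked by their p-values. The call depended on which low genes entered the test. With a minimum of 1 FPKM, Pnpla2, Abhd5, Lipe and Pnpla3 passed at day 8, and with no minimum Pnpla2 alone of the 7 did. Many other genes passed under the same settings, as counted in the closing section on processing. The log2 ratio of ROS over no ROS was 1.17 ± 0.10 larger at day 8 than at day 4 for Pnpla2, 0.67 ± 0.25 larger for Lipe and 0.94 ± 0.21 lower for Pnpla3, but none of these differences passed the adjustment (smallest adjusted p = 0.293 in limma). For G0s2 the ratio was 1.38 at both days.

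The day 8 samples also differed beyond these genes. The median log2 ratio of all genes was -0.20, and scaling the samples to a common median ratio changed the log2 ratio of Pnpla2 from 1.59 to 1.79 and that of Pnpla3 from -1.29 to -1.10, with no change of direction. Of the adipocyte markers, 4 of 7 tested were higher with ROS and 3 lower (median log2 ratio 0.49). Their summed FPKM was 34764 with ROS and 11080 without, of which Fabp4 alone had 31402 and 7631. All 6 preadipocyte markers were lower with ROS, with sums of 139 and 571, of which Ly6a alone had 108 and 495. The part of these differences in the ratios of the lipolysis genes was not tested.

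**Figure D4:**
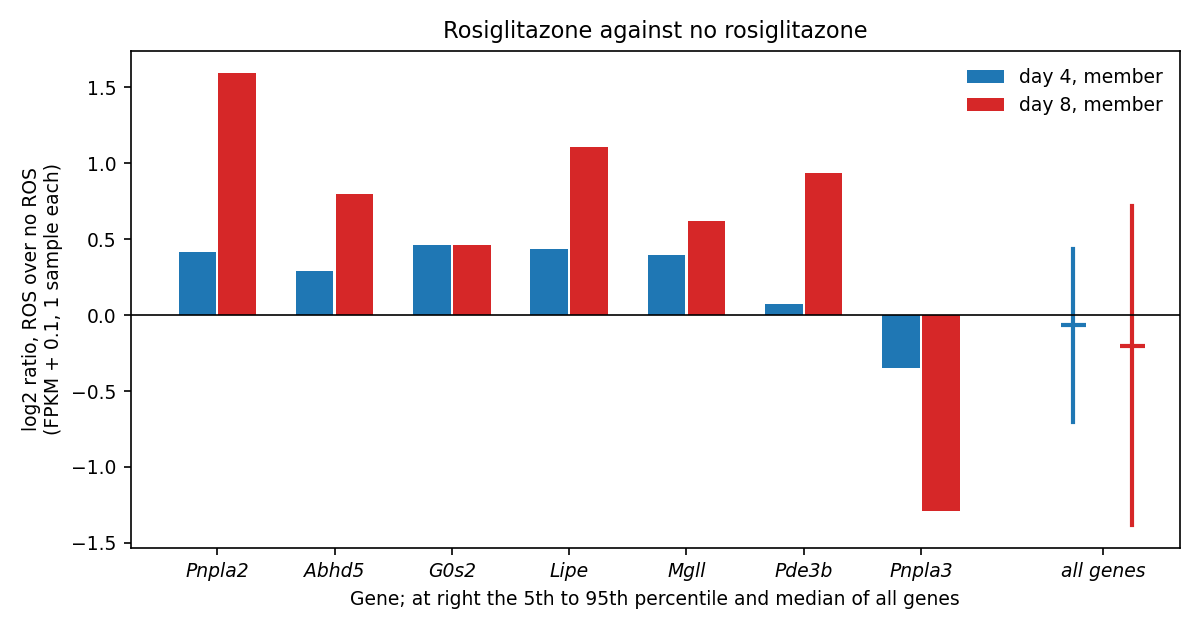
Log2 ratio of FPKM + 0.1 with ROS over that without ROS for each of the 7 genes at day 4 and day 8, from 1 sample per condition, beside the median and the 5th to 95th percentile of all 15667 genes tested. Pnpla2 has the tallest bar at day 8 (1.59), and Pnpla3 alone points down, at -0.35 and -1.29.

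Over time, the levels with and without ROS took different courses in different genes. The log2 difference of day 8 from day 4 was 0.90 with ROS and -0.27 without for Pnpla2, so the wider ratio at day 8 came mostly with a higher level in the treated cells. It was close to 0 with ROS (-0.0028) and -0.67 without for Lipe, and -0.13 and -0.996 for Pde3b, so for these genes the untreated cells had the lower level at day 8. For Pnpla3 it was 0.02 with ROS and 0.97 without. None of these passed in limma (smallest adjusted p over all genes 0.128 with ROS and 0.153 without).

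The pathway list at day 8 had 31 of 37 genes higher with ROS, beside 31.4% of all genes tested, and none passed in limma. Of the 37 genes, 12 were at least 2-fold higher, beside 2.69% of all genes, and 1 was at least 2-fold lower, beside 10.7%. All 4 genes that handle fatty acids and glycerol were past 2-fold. Plin5 had 31.4 FPKM with ROS and 2.66 without, Cidea 40.8 and 1.34, Cidec 2087 and 436, and Niacr1 7.52 and 0.541. The gene past 2-fold downward was Ptger3, at 0.148 FPKM with ROS and 0.674 without. The natriuretic peptide receptor Npr1 was lower with ROS too, at 3.40 against 6.10 FPKM.

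The third comparison asked whether the mutants of JMJD1A changed these genes in cells with knockdown of the mouse gene. The sample of S265D-H1120Y had the lowest level of all 7 genes among the 5 transduced samples, whereas 24.2% of the 15600 genes tested had their lowest level there. Against S265D it had 217 and 400.3 FPKM of Pnpla2 (ratio 0.543), 66.0 and 82.4 of Abhd5 (0.801), 461 and 582 of G0s2 (0.792), 110.4 and 210.4 of Lipe (0.525), 55.6 and 93.2 of Mgll (0.597), 29.7 and 47.3 of Pde3b (0.629) and 13.1 and 36.0 of Pnpla3 (0.366). All 7 genes were lower, as were 55% of all genes, and 1 of 7 was at least 2-fold lower, as were 5.89% of all genes. The median log2 ratio was -0.74 for the 7 genes and -0.05 for all genes. No gene passed in limma, where the WT pair gives the spread with 1 residual degree of freedom, and the 7 adjusted p-values were 1. By unadjusted p, 149 genes and none of the 7 were under 0.05.

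The adipocyte markers were lower in S265D-H1120Y as well, 6 of 7 tested with a median log2 ratio of -0.60. Their summed FPKM was 15283 against 24456 in S265D, of which Fabp4 alone had 14128 and 22872. Adipoq had 396 and 589 FPKM, and Cebpa 43.2 and 86.4. Preadipocyte markers did not go the opposite way, with 5 of 6 lower and sums of 213 and 477, of which Ly6a had 165 and 417. The summed macrophage markers were 21.7 and 10.4 FPKM, with Emr1 and Ptprc at 0 in both. Whether these differences take part in the lower lipolysis mRNAs was not tested. Of 39 tested pathway genes 32 were lower in S265D-H1120Y and 9 at least 2-fold lower, among them Plin5 (2.18 against 31.6 FPKM), Cidea (2.35 against 43.4) and Adrb3 (2.47 against 9.65). The 2 genes at least 2-fold higher were Ptger3 (0.410 against 0.0396 FPKM) and Abhd6 (47.8 against 20.8).

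The WT pair limited the other comparisons. WT A and WT B had 484 and 441 FPKM of Pnpla2 and 33.3 and 37.9 of Pde3b. They differed more in the other genes, with 269 and 180.1 FPKM of Lipe, 134 and 69.0 of Abhd5, 1169 and 486 of G0s2, 175 and 67.0 of Mgll, and 39.6 and 16.8 of Pnpla3. So 3 of 7 genes (G0s2, Mgll and Pnpla3) were at least 2-fold lower in WT B than in WT A, against 8.38% of all genes, and 6 of 7 had their highest level of the 5 transduced samples in WT A, against 29.8% of all genes. Of the adipocyte markers, 5 of 7 were lower in WT B, but Fabp4 was higher (26902 against 12393 FPKM). The preadipocyte markers summed to 146 in WT A and 569 in WT B, of which Ly6a had 116 and 496. Both samples are labelled as replicates of one condition.

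S265A had 414 FPKM of Pnpla2, 90.8 of Abhd5, 764 of G0s2, 205 of Lipe, 96.4 of Mgll, 37.1 of Pde3b and 17.9 of Pnpla3. Apart from Pnpla2, which lay below both WT samples, each of these values was between WT A and WT B, as were the values of 53.2% of all genes. S265D lay between the WT samples for Abhd5, G0s2, Lipe, Mgll and Pnpla3, below both for Pnpla2 and above both for Pde3b, and 56% of all genes lay between them. The largest log2 differences from WT were -0.53 ± 0.63 in S265A and 0.48 ± 0.63 in S265D, both for Pnpla3, and none passed in limma (adjusted p of 1.00 for all 7 genes in both comparisons, with 58 and 49 genes at an unadjusted p under 0.05). The direction against WT depended on the WT sample for 6 of 7 genes in S265A and 5 of 7 in S265D. S265D and S265A differed by -0.39 to 0.35 on the log2 scale in 6 genes, and Pnpla3 had 36.0 and 17.9 FPKM, a ratio of 2.01.

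**Figure D5:**
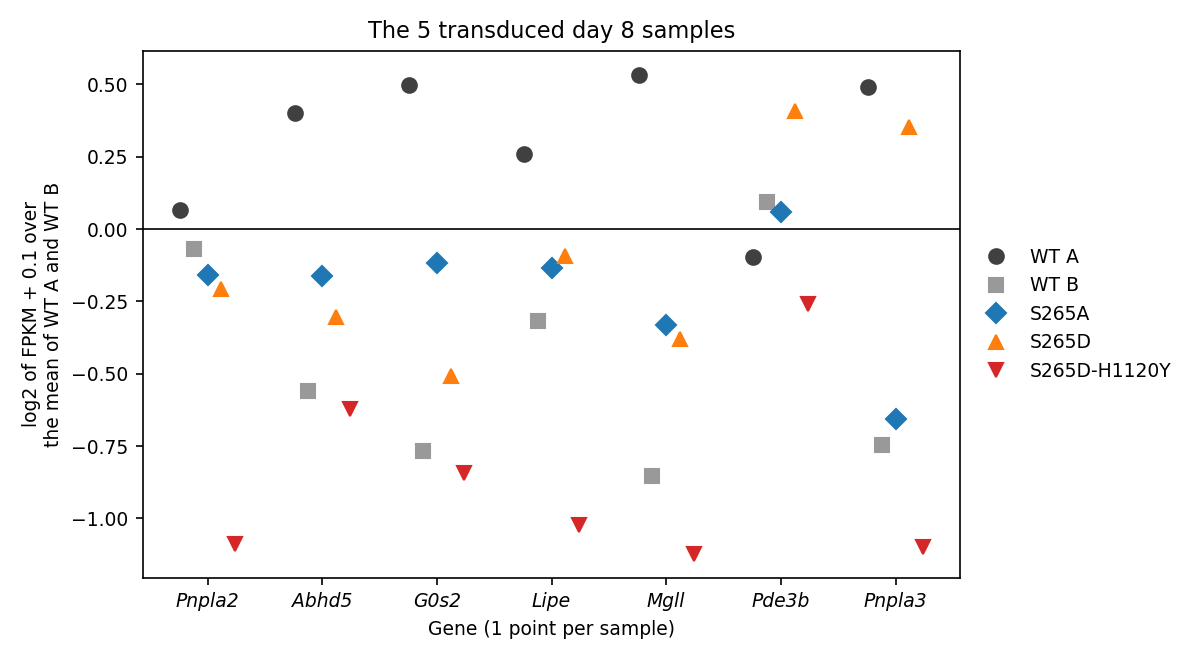
Log2 of FPKM + 0.1 over the mean of the WT pair for each of the 7 genes in the 5 transduced samples of day 8, with 1 point per sample. The points of S265D-H1120Y are the lowest for every gene, and the WT samples themselves lie up to 1.39 apart (Mgll).

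By their pattern over the 11 samples, the 7 genes were close to one another and to other adipocyte genes, with Pearson's r of log2(FPKM + 0.1) from 0.890 (Abhd5 with Pnpla3) to 0.995 (G0s2 with Mgll). These correlations mostly record the distance between the day 0 pair and the rest. Among the 5228 genes compared, the 3 closest were Sort1, Gpd1 and Cidec for Pnpla2 (r from 0.993 to 0.997), and Aldh6a1, Adipoq and Plin1 for G0s2 (0.997 to 0.998). For Lipe they were Dgat1, Thrsp and Sort1, for Mgll Pex11a and the 2 symbols of perilipin 1 (Plin and Plin1), and for Pde3b Itga6, Fabp4 and Cidec. For Abhd5 they were Dusp22, Fam82a2 and a transcript without a gene symbol, and for Pnpla3 Scd1, Gm6484 and Dapk1. Dgat1 and Scd1 encode enzymes that make triglyceride and monounsaturated fatty acids. Within the 9 differentiated samples, Lipe followed Abhd5 (r = 0.924) and Mgll followed G0s2 (0.916), whereas Pnpla3 had r of -0.37 with Lipe, -0.33 with Abhd5, -0.22 with Pnpla2 and 0.22 with Mgll. The samples share treatments and controls, so these values are descriptions.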

How the data were processed

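RNA-seq was analysed in 11 samples, grouped by their labels. The authors aligned TruSeq reads to the mm9 genome and UCSC gene transcripts (Burrows-Wheeler aligner), refined the alignments locally and deposited FPKM for each transcript and strand, beside a coverage signal in mapped bases. The tool versions are not given in the sources used here. Since bases are not counts, no count test was made. Columns of log FPKM were not used.

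Sense rows were used, with the transcript that the files mark as representative of its symbol. limma (version 3.58.1, R 4.3.3) was fitted on log2(FPKM + 0.1) with a mean-variance trend, for genes with at least 0.1 FPKM in 2 samples, and p-values were adjusted over all genes (Benjamini-Hochberg, threshold 0.05). Fold changes are on this scale, which understates changes of low genes. The day 0 pair and the WT pair are not stated to be separate cultures. Of the day 0 pair, 1 is labelled plus and 1 minus ROS, both before ROS was added. In the ROS and mutant comparisons, p-values therefore measure only the spread within 1 such pair, which may be technical. In the comparison of differentiated cells with day 0, the 4 differentiated samples of unlike day and ROS were taken as 1 group. Its standard errors and p-values therefore hold differences of day and ROS along with the spread of the day 0 pair. At the depth of 3.10 to 5.29 Gb, 100 mapped bases on 2 kb of exon give 0.00944 to 0.0161 FPKM. The script was tested on simulated data. Of the pathway list, 1 gene is counted but not reported here. Named genes were the 7 members, the pathway list, and the 3 genes with the highest Pearson correlation to each member among genes with a mean of at least 1 FPKM and an SD of at least 0.5. The members and lists were chosen with earlier results of these data known. Alternatives changed the pseudocount, minimum, transcript, scaling, fit and samples. Python 3.11.15, pandas 2.3.3 and matplotlib 3.10.9 made tables and figures.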

Additional observations from a re-analysis of the deposited data

Results flagged for a closer look

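Pde3b at day 8 without ROS (22.9 FPKM) stood apart from the other 3 differentiated untransduced samples (44.0 to 48.3 FPKM). Its gap to the nearest of them was 0.831 of the range of the 4 samples, just past the critical value of Dixon's test. Among 13 genes and ratios examined in this way it was the 1 past that value. Dixon's test takes its samples as replicates of one condition, whereas these 4 samples differ in day or ROS. The ratios also share genes with the other items. The usual chance rate of about 1 in 20 therefore does not apply, and the gap is a description only.

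The files also hold a row for the antisense strand of each transcript, which no comparison above used. In 6 of the 7 genes the antisense FPKM was higher in all 9 differentiated samples than in both day 0 samples. How often the antisense rows of other genes do the same was not counted, so the count is a description only. The median over the 9 samples was 0.880 for Pnpla2, 0.311 for Abhd5, 0.728 for G0s2, 0.221 for Mgll, 0.182 for Pde3b and 0.164 for Pnpla3, and the highest day 0 value was 0.0204, for Abhd5. Lipe was the exception, with 0.156 FPKM as the higher of its day 0 values and 0.0778 to 0.655 afterwards. The antisense value was 0.0361% to 1.46% of the sense value in the differentiated samples, over the 7 genes. Over all genes, antisense rows held between 1.52% and 2.28% of the mapped bases of a sample.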

How the results depend on the processing

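All 7 genes passed in the comparison of differentiated cells with day 0 under each alternative tried, including each sample left out in turn, while the number of all genes called went from 2710 to 7000 when 1 sample was left out (6711 with all) and was lowest without a day 0 sample (2717 without the first and 2710 without the second). For ROS over no ROS at day 8, where no gene was called, 718 genes and 1 of the 7 (Pnpla2) passed with no minimum FPKM, and 1460 genes and 4 of the 7 with a minimum of 1 FPKM, where fewer or more low genes enter the adjustment and the trend. No other alternative gave a call with ROS or in the transduced samples. Leaving out 1 WT sample gave log2 differences of S265A from WT of -0.56 to 0.40 for Abhd5, -0.61 to 0.65 for G0s2, -0.39 to 0.18 for Lipe, -0.86 to 0.52 for Mgll, -0.032 to 0.16 for Pde3b and -1.14 to 0.091 for Pnpla3. For S265D they were -0.70 to 0.26 for Abhd5, -1.01 to 0.26 for G0s2, -0.35 to 0.22 for Lipe, -0.91 to 0.48 for Mgll and -0.14 to 1.10 for Pnpla3. These fits took their spread from the day 0 pair, a choice made after seeing the data. G0s2 in S265A turned from 0.02 to -0.0043 when samples were scaled by median ratios. The ROS label (day 0 samples included), added as a block after seeing the data although it is no replicate number, gave 6149 genes between differentiated and day 0 cells, with all 7 genes passing in limma. For the other comparisons no paired analysis was possible because each sample is alone in its condition or shares no number. With 1 sample per condition, the ROS and mutant ratios have no replicate check, and Pnpla3 at day 0 rests on few mapped bases.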

Other observations

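In the transduced samples the carboxylesterases Ces1d and Ces1f, which hydrolyse esters of fatty acids, were far higher in WT A than in the other 4 samples. Ces1d had 105 FPKM in WT A and 9.88 to 25.2 FPKM in the others, and Ces1f had 66.6 FPKM and 3.99 to 13.5 FPKM. Plin5 was also highest in WT A (58.8 FPKM), followed by S265D (31.6), and lowest in S265D-H1120Y (2.18). Cidea had 33.2 FPKM in WT A, 7.03 in WT B, 7.29 in S265A, 43.4 in S265D and 2.35 in S265D-H1120Y, so its order over these samples was close to that of Pnpla3 (39.6, 16.8, 17.9, 36.0 and 13.1 FPKM). In the untransduced samples of day 8 both genes went opposite ways, with 40.8 FPKM of Cidea with ROS and 1.34 without, and 9.36 and 23.1 FPKM of Pnpla3.

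Npr1, a receptor of natriuretic peptides, had 3.40 to 7.16 FPKM in the 4 differentiated untransduced samples and 0.342 to 0.915 FPKM in the 5 transduced samples. Plin2 was the one lipid droplet gene of the list with its highest level in S265D-H1120Y besides Rfwd2, at 1089.5 FPKM against 759 to 1046 FPKM in the other transduced samples.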
